A study of Homo sapiens with 4 samples.

Results

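LEF1 is one of the TCF and LEF proteins through which Wnt signaling and β-catenin act on target genes. The genes of this pathway and the genes that Wnt signaling itself switches on were therefore followed in Jurkat cells treated with LEF1 siRNA. A total of 43 genes was listed by symbol, covering ligands, receptors, the β-catenin destruction complex, nuclear cofactors and feedback targets. Of these, 42 had a probe set annotated to that gene alone, out of 19775 genes on the array, and PORCN had none in the annotation used. For each gene the probe set of highest mean signal over the 4 arrays was taken. In 38 of the 42 genes both control signals lay above the median of their array, as in 12672 of all 19775 genes, and these 38 are called bright. The bright gene nearest to that limit was FZD7, with siNT signals of 4.98 and 6.57, and the nearest gene outside it was FZD4, with 4.59 and 4.62, against array medians of 4.84 to 4.85.

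The arrays were of Jurkat cells, a human T-cell acute lymphoblastic leukemia line with mutant p53. The siLEF1 group received 100 nM of a pool of siRNAs against LEF1 and the siNT group 100 nM of a pool of non-targeting siRNAs, both with the HiPerFect reagent, and RNA was taken after 24 h. Each group had 2 arrays (Affymetrix HG-U133 Plus 2.0), labelled as biological replicates. Both groups were transfected cells of the same line, and non-transfected cells were not analysed here. Values are RMA signals on the log2 scale, and a log2 fold change is the siLEF1 mean minus the siNT mean, tested with limma over all 54613 probe sets.

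Wnt ligands bind Frizzled receptors and the coreceptors LRP5 and LRP6, and Dishevelled proteins pass the signal on. Without a ligand, a complex of AXIN, APC, GSK3 and casein kinase 1 marks β-catenin for destruction. With a ligand, β-catenin accumulates and joins TCF and LEF proteins on DNA, where BCL9, Pygopus and the acetyltransferases CREBBP and EP300 help to activate targets. In the absence of β-catenin the same DNA-bound proteins can hold targets silent with TLE corepressors. Several targets, among them AXIN2, NKD1, RNF43 and ZNRF3, act back on the pathway as inhibitors. LEF1 and its relative TCF7 are known for their part in the development of thymocytes.

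LEF1 itself was lower in value, but no LEF1 probe set passed. The brightest read 11.24 and 11.56 with siLEF1 against 12.30 and 11.92 with siNT, which gave a difference of -0.71 (log2, standard error 0.20, adjusted p = 0.191). Both siLEF1 arrays lay under both siNT arrays, and the second probe set, at -0.93 (adjusted p = 0.141), showed the same order. In the dimmest, at -0.19, the groups overlapped. Across the array, siNT replicate 2 stood farthest from the siLEF1 arrays (Pearson's r across probe sets 0.979 and 0.980, against 0.988 and 0.991 for siNT replicate 1), and the siNT replicates differed more from each other than the siLEF1 replicates did (median absolute difference 0.206 against 0.147). The 5' minus 3' signal of ACTB, a measure of RNA integrity, was -1.08 and -1.55 with siLEF1 against -1.80 and -1.95 with siNT, and its part in the results below was not tested. Of 10 T-cell markers, 9 lay above the array median in all 4 arrays, CD2 being the exception. Also above it in all 4 were 2 of 4 B-cell markers (CD79A and CD79B), 1 of 5 myeloid markers (CSF1R) and 4 of 7 epithelial and stromal markers (KRT8, KRT18, COL1A1 and DCN). MS4A1, PAX5, EPCAM and CDH1 lay under it in all 4. The summed linear signal of the T-cell markers was 16416 and 16906 with siLEF1 against 15674 and 12035 with siNT, and its part was not tested either. In this sum CD3D and LCK, the brightest of the 10, weigh most. Their log2 fold changes were 0.07, with overlap, and 0.47, without. In such bulk RNA, fewer cells of a type and less RNA per cell cannot be told apart.

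None of the 42 genes passed in either direction at the thresholds used here (adjusted p under 0.05, over 2-fold). Over the whole array 0.183% of probe sets were called lower and 0.0238% higher. The smallest adjusted p among the 42 was 0.184. At an unadjusted p under 0.05 there were 4 genes below and 5 above siNT cells, 21.4% of the 42, against 18.5% of all genes, with 11.5% below and 7.00% above. The 4 were FZD2, FZD7, CSNK1A1 and CREBBP, and the 5 were DVL1, SP5, NKD2, CTNNBIP1 and BTRC.

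There was no overlap between siLEF1 and siNT signals in 25 of the 38 bright genes, or 65.8%, against 64.2% of all bright genes on the array. In 10 of them siLEF1 cells lay below (26.3%, background 34.1%) and in 15 above (39.5%, background 30.1%). With the arrays centred on the median of 12 housekeeping genes, which moved every log2 fold change by -0.13 (all probe sets then had a median of -0.09 in place of 0.04), the split became 14 below (36.8%) and 10 above (26.3%), against 48.0% and 17.2% of all bright genes so centred. The median log2 fold change of the 42 genes was 0.11, against 0.02 over all genes, and with that centring it was -0.02. In 31 of the 38 bright genes the 95% interval lay within a 2-fold change in either direction, and the share over all bright genes was not computed. Bright genes were picked by their siNT signals alone, which leaves out genes that are high only with siLEF1. Among all 42 genes, without that centring, 10 lay below (23.8%) and 17 above (40.5%). Over all genes 26.4% lay below and 28.1% above.

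**Figure D1:**
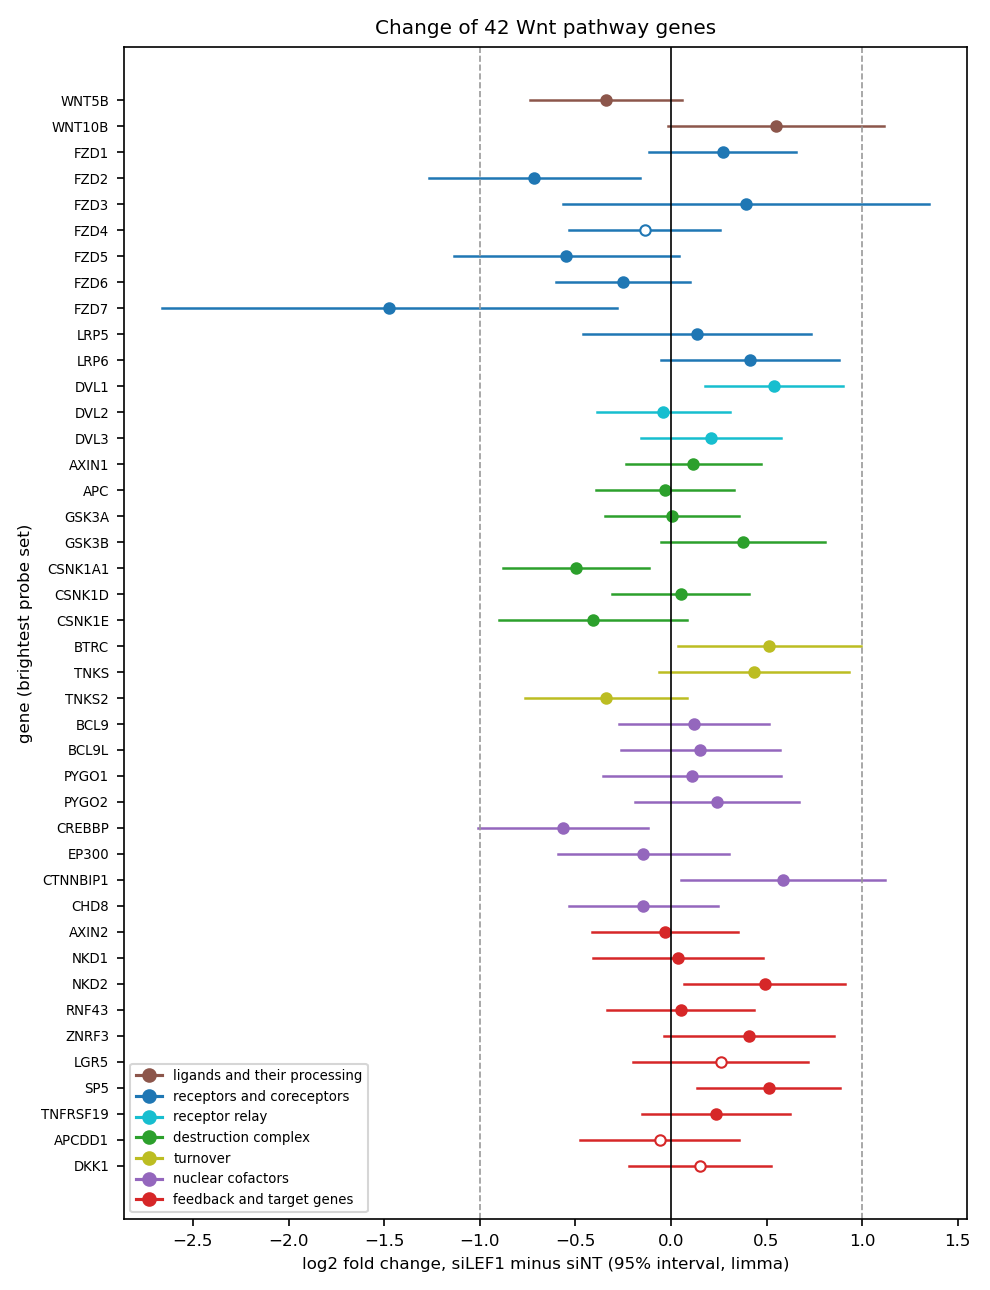
Log2 fold change (horizontal axis, siLEF1 minus siNT) of the 42 genes by role, with 95% intervals from limma and 2 arrays per group. Filled points are genes with both siNT signals above the array median and open points the other 4; dashed lines mark a 2-fold change, which only the point of FZD7 exceeds, at -1.47.

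Among the 10 feedback and target genes none had both siLEF1 arrays under both siNT arrays. In 6 of the 10 both siLEF1 arrays lay above both siNT arrays, namely NKD2, ZNRF3, LGR5, SP5, TNFRSF19 and DKK1, of which LGR5 and DKK1 were not bright. Over all genes, bright or not, 28.1% lay above in this way and 26.4% below. With housekeeping centring 3 of the 10 lay above and 0 below. Of all bright genes so centred, 17.2% lay above and 48.0% below, and the share over bright and dim genes together was not computed. The median log2 fold change of the 10 was 0.19, and 2 of the 10 values were below 0, against 46.5% over all genes. Of the other 8, those of NKD1 and RNF43 were below 0 with that centring.

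SP5, a zinc-finger repressor and a Wnt target in many cell types, read 6.50 and 6.30 with siLEF1 against 5.90 and 5.89 with siNT. Both siLEF1 arrays lay above both siNT arrays, and the controls differed by only 0.01. The log2 fold change was 0.51 (standard error 0.15, 95% interval 0.14 to 0.88, adjusted p = 0.209), a 1.42-fold higher signal that did not pass. Against siNT replicate 1 alone the difference was 0.50 and against replicate 2 alone 0.52. SP5 was read by a single probe set.

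The promoters of SP5 and DKK1 are shown because they were the only 2, among the 29 listed genes with a promoter window in the RefSeq table (build GRCh38.p14), that held the core of the TCF/LEF binding site. Windows ran from 250 bases before to 50 bases after the gene start, and the core was searched as CTTTGAA or CTTTGAT on both strands. It was present in 2 of the 38 windows of these genes (5.26%), and in 6.86% of all 35116 windows. SP5 held 3 cores that do not overlap one another, beginning 148, 109 and 84 bases before the start, of which the first and the last lie on the opposite strand. At least 3 cores were found in 0.0256% of all windows. DKK1 held 1, on its own strand, beginning 95 bases before the start. The SP5 window is chr2:170715087-170715386 and that of DKK1 chr10:52314031-52314330, both on the plus strand, and capitals mark the cores.
SP5: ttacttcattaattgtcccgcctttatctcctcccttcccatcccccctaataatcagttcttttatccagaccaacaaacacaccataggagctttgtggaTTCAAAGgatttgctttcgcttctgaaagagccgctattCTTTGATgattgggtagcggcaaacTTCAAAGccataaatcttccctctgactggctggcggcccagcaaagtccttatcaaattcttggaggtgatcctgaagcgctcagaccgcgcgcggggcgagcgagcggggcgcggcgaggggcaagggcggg
DKK1: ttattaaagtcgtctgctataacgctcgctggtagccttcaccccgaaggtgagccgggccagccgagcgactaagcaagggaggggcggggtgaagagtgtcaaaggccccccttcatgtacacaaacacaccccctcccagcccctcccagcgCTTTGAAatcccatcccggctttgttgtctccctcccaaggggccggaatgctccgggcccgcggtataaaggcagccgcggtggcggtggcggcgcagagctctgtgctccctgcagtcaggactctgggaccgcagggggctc
Each match is a stretch of letters and was not tested for binding in these cells. AXIN2, NKD1, ZNRF3 and LGR5 had no window in the table.

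AXIN2, the scaffold that is the most widely used readout of Wnt activity, read 7.24 and 7.45 with siLEF1 against 7.32 and 7.43 with siNT. The groups overlapped, and the log2 fold change of -0.03 had a 95% interval of -0.41 to 0.35. Its other bright probe set had -0.18 (adjusted p = 0.662), also with overlap.

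NKD1 and NKD2 encode Naked proteins, which bind Dishevelled and dampen the signal. NKD1 read 5.62 and 5.39 with siLEF1 against 5.64 and 5.30 with siNT, so that the groups overlapped, with a log2 fold change of 0.04. NKD2 read 7.22 and 7.08 with siLEF1 against 6.82 and 6.50 with siNT. Its groups did not overlap, and the difference came to 0.49 (log2, standard error 0.17, adjusted p = 0.264).

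RNF43 and ZNRF3 encode ubiquitin ligases that remove Frizzled receptors from the cell surface. RNF43 read 5.86 and 5.64 with siLEF1 against 5.75 and 5.65 with siNT, with overlap and a log2 fold change of 0.05. ZNRF3 read 8.13 and 8.20 with siLEF1 against 7.96 and 7.56 with siNT. Here the siLEF1 arrays lay above, the log2 fold change was 0.41 (95% interval -0.04 to 0.85, adjusted p = 0.356), and the siNT arrays differed from each other by 0.40.

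TNFRSF19, a receptor of the tumor necrosis factor family, read 5.48 and 5.24 with siLEF1 against 5.10 and 5.16 with siNT, a log2 fold change of 0.23 with no overlap. Its dimmer probe sets had -0.02 and -0.18. The remaining feedback genes were dim, and in a dim gene a lower level can be missed. LGR5, a receptor for R-spondins, read 3.99 and 3.55 with siLEF1, against 3.51 in both siNT arrays. DKK1, a secreted inhibitor that binds LRP6, read 3.44 and 3.26 with siLEF1 against 3.21 and 3.19 with siNT. APCDD1, a membrane inhibitor of Wnt binding, read 3.18 and 3.16 with siLEF1 against 3.06 and 3.40 with siNT, with overlap. Adjusted p-values of these 4 genes were 0.545 to 0.911.

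**Figure D2:**
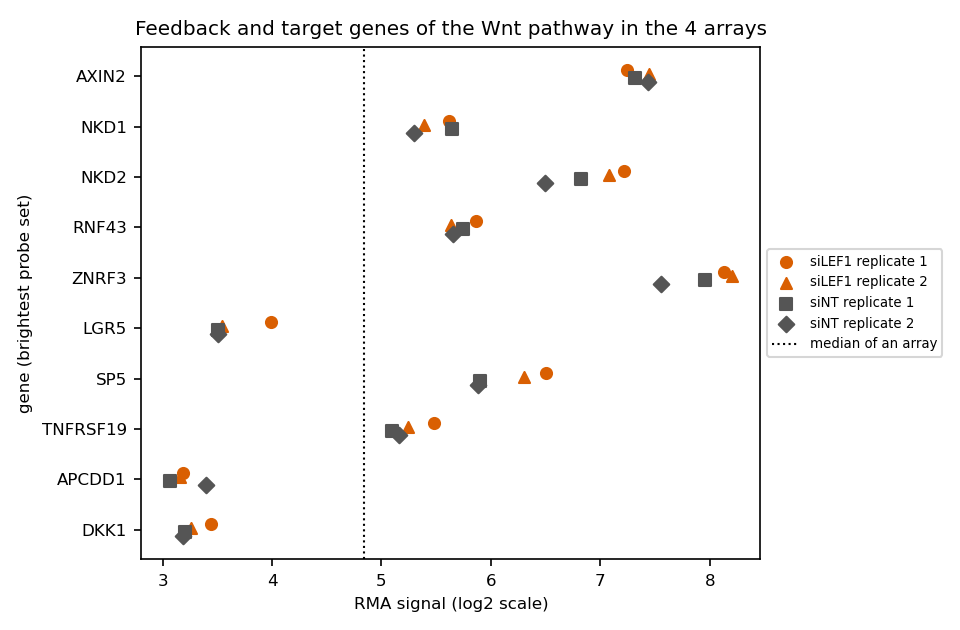
Log2 RMA signals (horizontal axis) in each of the 4 arrays for the 10 feedback and target genes, with the median of an array as a dotted line; signals are to be compared within a gene only. For SP5, NKD2, ZNRF3 and TNFRSF19 both siLEF1 arrays lie to the right of both siNT arrays, and LGR5, APCDD1 and DKK1 lie left of the median.

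Of the ligands, WNT10B, a ligand known for promoting bone formation, read 6.53 and 6.10 with siLEF1 against 6.01 and 5.52 with siNT. The groups did not overlap, at a log2 fold change of 0.55 (95% interval -0.02 to 1.11, adjusted p = 0.332). WNT5B, a ligand that mostly signals without β-catenin, read 4.70 and 4.98 with siLEF1 against 5.20 and 5.15 with siNT. The siLEF1 arrays lay below, at -0.34 (adjusted p = 0.391), close to the array median.

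The lowest log2 fold changes of the 42 genes were those of the receptor genes FZD7 and FZD2. FZD7 read 4.05 and 4.54 with siLEF1 against 4.98 and 6.57 with siNT. Both siLEF1 arrays lay under both siNT arrays and under the array median, and the siNT arrays differed from each other by 1.59. The log2 fold change was -1.47 (standard error 0.49, 95% interval -2.66 to -0.28, adjusted p = 0.241), a 2.78-fold lower signal that did not pass. The other FZD7 probe set read 3.97 and 4.03 with siLEF1 against 5.22 and 6.36 with siNT, with -1.78 (adjusted p = 0.110) and no overlap.

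FZD7 was the only one of the 42 genes whose call depended on the arrays used. Without siNT replicate 1 its log2 fold change was -2.27 and it was called (adjusted p = 0.0431), a fit in which the lone control array is assumed to vary like the siLEF1 arrays. Without siNT replicate 2 it was -0.68. Over all alternatives its adjusted p ran from 0.0334 to 0.791.

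FZD2 read 6.81 and 7.32 with siLEF1 against 7.60 and 7.96 with siNT, with no overlap and a log2 value of -0.72 (standard error 0.23, adjusted p = 0.223). Its second probe set, dimmer, lay on the other side, at 0.18 (adjusted p = 0.610) and again with no overlap. FZD5 read 4.98 and 5.55 with siLEF1 against 6.02 and 5.61 with siNT, a log2 fold change of -0.55 (adjusted p = 0.350). FZD6, a Frizzled known for restraining β-catenin signaling, read 9.24 and 9.30 with siLEF1 against 9.52 and 9.53 with siNT. The replicates of each group were close together and the difference was -0.25 (95% interval -0.60 to 0.10).

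FZD1 was the only bright Frizzled gene with both siLEF1 arrays above both siNT arrays, at 7.04 and 7.16 against 6.94 and 6.72. FZD3 read 7.27 and 7.64 with siLEF1 against 7.69 and 6.43 with siNT. Its difference was -0.24 against siNT replicate 1 and 1.02 against replicate 2, so that its direction depended on the control array. FZD4, the dim member, had -0.14 with overlap. Across FZD1 to FZD7 the values thus ran from -1.47 to 0.39.

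Of the coreceptors, LRP6 read 8.47 and 8.63 with siLEF1 against 8.35 and 7.93 with siNT, a log2 fold change of 0.41 (adjusted p = 0.372) without overlap. The other 2 LRP6 probe sets had 0.16 and -0.09, both with overlap. In LRP5 the groups overlapped, at 0.13, and the difference was -0.15 against siNT replicate 1.

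Among the Dishevelled genes, DVL1 had the smallest p of the 42. It read 9.05 and 9.001 with siLEF1 against 8.55 and 8.42 with siNT. Both siLEF1 arrays lay above both siNT arrays by more than either pair of replicates differed. The log2 fold change was 0.54 (standard error 0.15, 95% interval 0.18 to 0.90, adjusted p = 0.184), a 1.45-fold higher signal that did not pass. DVL3 read 8.97 and 8.96 against 8.84 and 8.67, with 0.21 (adjusted p = 0.566). DVL2 read 9.15 in both siLEF1 arrays and 9.22 and 9.17 in siNT cells, with -0.04 and a 95% interval of -0.39 to 0.31. The other bright probe set of DVL2 had 0.07, above siNT cells without overlap, and that of DVL3 had -0.05 with overlap. By their brightest probe sets the 3 paralogs had values on both sides of 0, and a difference between them was not tested.

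**Figure D3:**
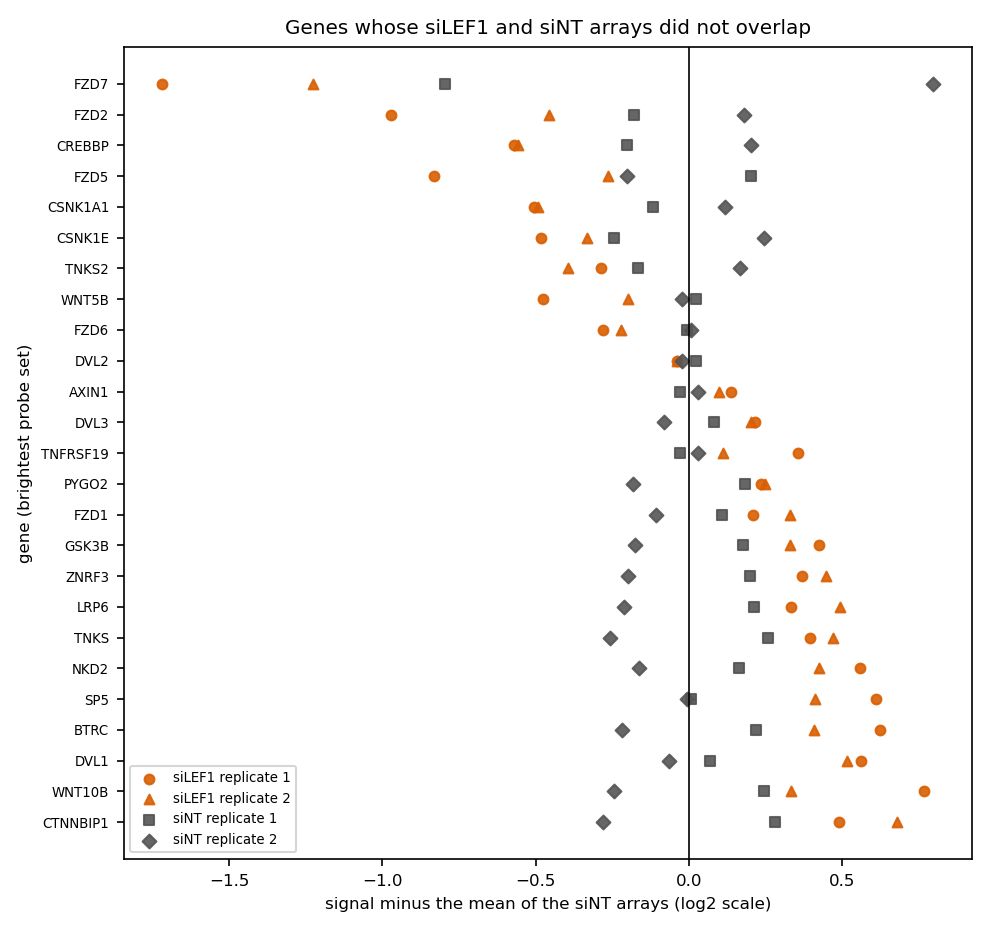
Signal of each array minus the mean of the siNT arrays (horizontal axis, log2 scale) for the 25 bright genes whose groups did not overlap, in order of log2 fold change. Marker shapes tell the replicates apart (circle and triangle for siLEF1, square and diamond for siNT); in FZD7 the siNT arrays are 1.59 apart, and in SP5 0.01.

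Over the 7 genes of the destruction complex the median difference was 0.01 (log2). AXIN1, its scaffold, read 7.93 and 7.88 with siLEF1 against 7.76 and 7.82 with siNT, at 0.12 (95% interval -0.23 to 0.47). APC, which helps to hold β-catenin, and GSK3A had values of -0.03 and 0.01, with overlap and intervals of -0.39 to 0.33 and -0.35 to 0.36. CSNK1D, one of the casein kinases, had 0.05 and overlapped too. Other bright probe sets of these genes did not overlap, on the lower side for CSNK1D, at -0.55 (adjusted p = 0.247), and on the higher side for APC, at 0.37 (adjusted p = 0.298) and for GSK3A, at 0.23.

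GSK3B, the kinase that phosphorylates β-catenin after casein kinase 1 has primed it, read 9.67 and 9.58 with siLEF1 against 9.43 and 9.07 with siNT. The log2 fold change was 0.38 (adjusted p = 0.375) without overlap. Its other bright probe sets had 1.00 (adjusted p = 0.194) and -0.19 (adjusted p = 0.741), so that the probe sets of this gene did not share a direction.

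CSNK1A1, the priming casein kinase, read 11.45 and 11.47 with siLEF1 against 11.84 and 12.08 with siNT. The siLEF1 arrays nearly coincided and lay under both siNT arrays, at -0.50 (log2, standard error 0.16, adjusted p = 0.222). Of its 9 bright probe sets 7 were below 0 and 2 above, from -1.69 (adjusted p = 0.120) to 0.65 (adjusted p = 0.245). In 6 of them siLEF1 cells lay below without overlap and in 1 above. CSNK1E read 7.71 and 7.86 with siLEF1 against 7.95 and 8.44 with siNT, at -0.41 (adjusted p = 0.403), and its second probe set, at -0.24, was in the same order.

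Turnover of β-catenin and AXIN was represented by 3 genes. BTRC, the F-box protein that recognizes phosphorylated β-catenin, read 7.83 and 7.61 with siLEF1 against 7.42 and 6.99 with siNT, which gave 0.51 (log2, standard error 0.20, adjusted p = 0.293). Its second probe set lay below siNT cells without overlap, at -0.21. TNKS and TNKS2 encode tankyrases, which mark AXIN for degradation. TNKS read 7.96 and 8.03 against 7.82 and 7.31, with 0.43 (adjusted p = 0.379), and TNKS2 read 10.08 and 9.98 against 10.20 and 10.54, with -0.34 (adjusted p = 0.414). Neither tankyrase overlapped, and they lay on opposite sides of the control. All 3 bright probe sets of TNKS2 were below 0.

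Among the nuclear cofactors, CREBBP read 9.26 and 9.27 with siLEF1 against 9.63 and 10.03 with siNT. The siLEF1 arrays lay below, at -0.56 (log2, standard error 0.18, 95% interval -1.01 to -0.12, adjusted p = 0.232). Of its other bright probe sets one had -0.21 and the other 0.15, each without overlap and on opposite sides. EP300, its close relative, overlapped at -0.14.

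CTNNBIP1, also called ICAT, binds β-catenin and keeps it from TCF and LEF proteins. It read 7.79 and 7.98 with siLEF1 against 7.58 and 7.02 with siNT. Its log2 fold change of 0.58 was the highest of the 42 (standard error 0.22, 95% interval 0.05 to 1.12, adjusted p = 0.285), and the siNT arrays differed from each other by 0.56. It was 0.30 without siNT replicate 2, where SP5 (0.50), DVL1 (0.47), NKD2 (0.33) and WNT10B (0.31) were higher. Without siNT replicate 1 it was 0.87, and FZD3 (1.02) was higher. PYGO2, which with BCL9 bridges β-catenin to chromatin, read 6.79 and 6.80 against 6.74 and 6.37, at 0.24 (adjusted p = 0.573). BCL9, BCL9L, PYGO1 and the chromatin remodeler CHD8 overlapped, with values of -0.15 to 0.15.

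**Figure D4:**
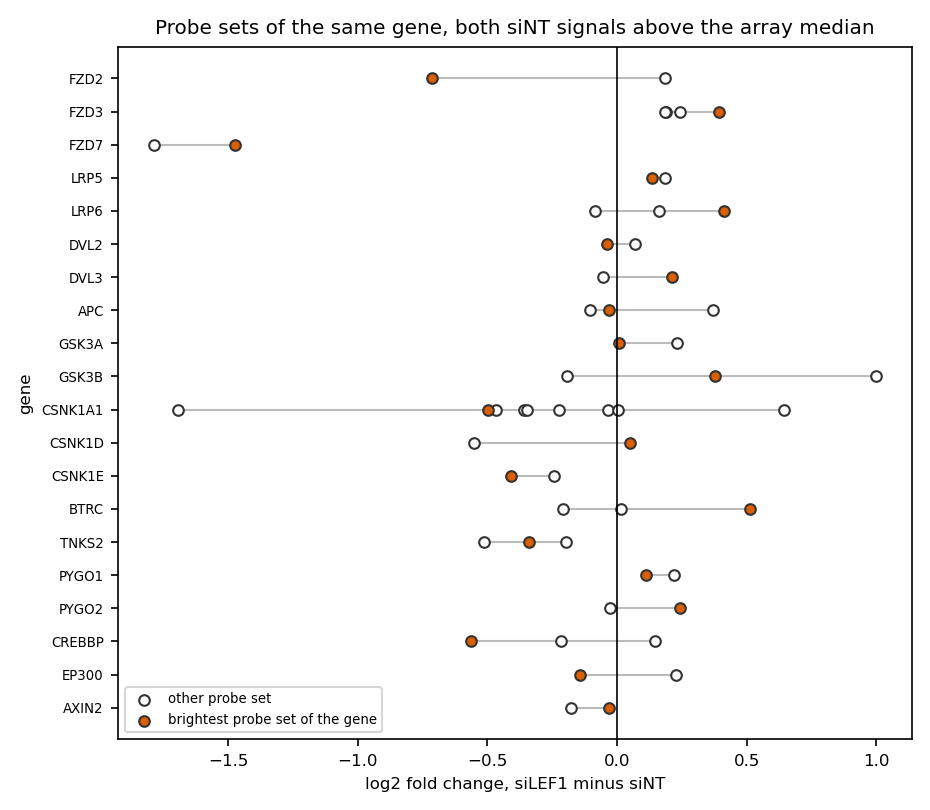
Log2 fold change (horizontal axis, siLEF1 minus siNT) of every bright probe set of the 20 genes that had more than 1, with the brightest of the gene filled. In 12 of the 20 genes the probe sets lie on both sides of 0, most widely in CSNK1A1, from -1.69 to 0.65.

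Where a gene was read by several probe sets, they often differed. Of the 20 genes with more than 1 bright probe set, 8 had all of them on the same side of 0 and 12 did not. The same share over all genes of the array was not computed, so this cannot be read as particular to these genes. Of the 25 genes without overlap, 13 had a single bright probe set and 12 had another. In FZD7, CSNK1E and TNKS2 every other bright probe set lay on the same side, and in the remaining 9 at least 1 lay on the other side. DVL1, SP5, NKD2 and CTNNBIP1 are among those read once, so that no second reading stands beside their values.

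The siNT arrays lay farther apart than the siLEF1 arrays. The absolute difference between the siNT arrays had a median of 0.330 over the 38 bright genes, against 0.225 over all bright genes. That between the siLEF1 arrays had a median of 0.120, against 0.102. In 18 of the 38 (47.4%) the siNT arrays differed by more than the log2 fold change, against 45.3% of all bright genes. In 10 of the 38 the siLEF1 mean lay between the siNT arrays, and so it did in 2751 of all 12672 bright genes. The median difference of the 38 was 0.01 against siNT replicate 1 and 0.21 against replicate 2, and over all bright genes -0.03 and 0.01.

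**Figure D5:**
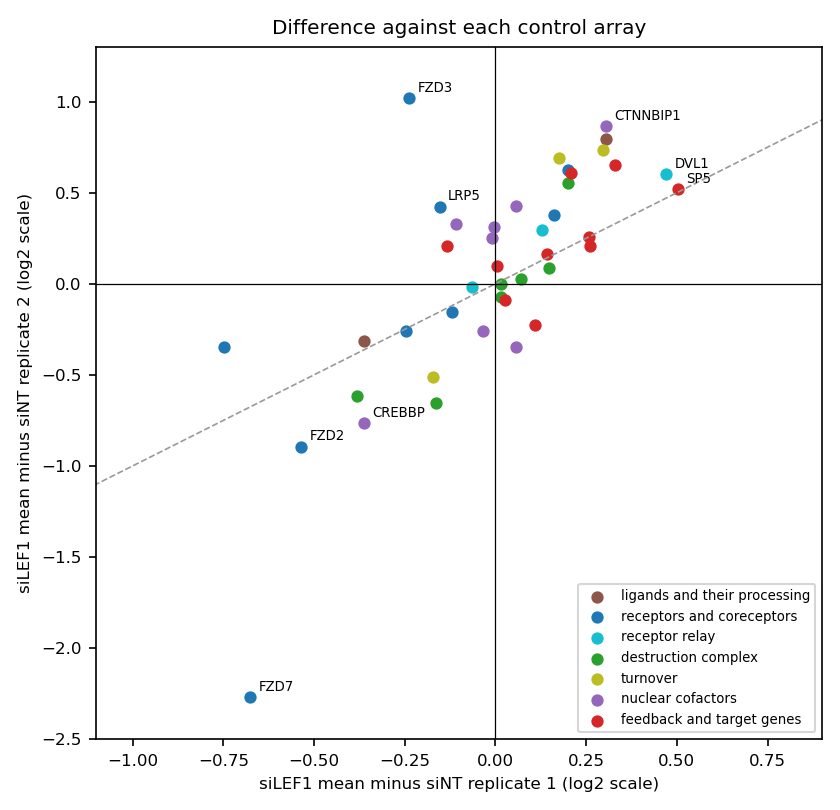
Difference of the siLEF1 mean from siNT replicate 1 (horizontal axis) and from siNT replicate 2 (vertical axis) for the 42 genes, on the log2 scale, with the dashed line where both are equal. Both axes share the siLEF1 mean; SP5 lies close to the line at 0.50 and 0.52, FZD7 far below it at -0.68 and -2.27, and FZD3 in the quadrant of opposite signs.

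A list of 82 other genes of the pathway was set beside these, of which 77 had a probe set of their own and 47 were bright. None passed in either direction, and at an unadjusted p under 0.05 there were 8 below and 8 above, 20.8% of the 77 against 18.5% of all genes. The replicate number was also used as a block, which the arrays did not bear out as a pairing. Of the genes of this list named in the text, HBP1 (adjusted p = 0.0271), WNT10A (0.0389) and SFRP4 (0.0459) were then called lower. Genes of the list that are not named were not looked up with this block. Over the whole array it gave 977 lower calls among 54613 probe sets. The median log2 fold change of the 77 was 0.03. In 31 of the 47 bright genes the groups did not overlap, 66.0% against the 64.2% of all bright genes, with 16 below and 15 above. SFRP4, a secreted Frizzled-related inhibitor, read 3.64 and 4.06 with siLEF1 against 4.95 and 4.87 with siNT. Its log2 fold change was -1.06 (adjusted p = 0.0956). The siNT signals of SFRP4 were only just above the array medians of 4.84 to 4.85, and its siLEF1 signals lay under them. The ligand gene WNT10A had -1.02 (adjusted p = 0.108). WNT10A was at 0.13 when probe sets that can cross-hybridize were left out. HBP1, a repressor that binds TCF proteins, read 7.74 and 7.75 with siLEF1 against 8.72 and 9.57 with siNT, at -1.40 (adjusted p = 0.113). Without siNT replicate 1 HBP1 was called, at -1.82 (adjusted p = 0.0394, with 0.0271 to 0.733 over all alternatives), and without siNT replicate 2 it was at -0.97 (adjusted p = 0.183). RNF146, a ubiquitin ligase that works with tankyrases on AXIN, had -0.64 (adjusted p = 0.139).

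Above siNT cells, the 4 bright genes of that list with the smallest p were TLE1, KREMEN1, SMARCA4 and USP7. TLE1, a corepressor partner of LEF1, was at 0.53 on the log2 scale (adjusted p = 0.211). KREMEN1, a receptor for DKK proteins, had 0.51, the remodeler SMARCA4 0.49 and the deubiquitinase USP7 0.42, with adjusted p-values of 0.214 to 0.259. Of 23 further Wnt target genes, 21 had a probe set and none passed. At an unadjusted p under 0.05 JUN (-2.28), ID2 (-1.06) and LEF1 (-0.71) lay below and TERT (0.98) and MYC (0.88) above, named here after their values were seen. They were 23.8% of the 21, against 18.5% of all genes, and LEF1 is the target of the siRNA itself. The signal of siNT replicate 2 minus replicate 1 was 1.26 for JUN, 0.91 for ID2, -0.38 for LEF1, -0.49 for TERT and -0.41 for MYC.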

How the data were processed

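Jurkat RNA, 2 samples with siLEF1 and 2 with siNT, was hybridized to HG-U133 Plus 2.0 arrays. Groups and replicate numbers came from the sample labels. RMA was run by the authors in Expression Console (Affymetrix), given as version 1.1 by the submitters' processing notes. The deposited table holds log2 signals, with 1 value per probe set and array and no filter. RMA equalizes the arrays, so a shift of most genes would not be seen. The number of arrays limits the precision. The p-values and intervals from limma rest only in part on the spread between these samples. Each variance was moderated toward a value estimated over all probe sets, with 4.30 prior against 2 residual degrees of freedom. In DVL2 the standard deviation was 0.0002 with siLEF1 and 0.034 with siNT, yet the standard error of the difference was 0.144.

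After 62 control probe sets were left out, siLEF1 minus siNT was fitted for 54613 probe sets by the lmFit and eBayes functions of limma (3.58.1, under R 4.3.3), 2-sided and with Benjamini-Hochberg adjustment. Calls had to reach an adjusted p below 0.05 together with more than a 2-fold difference. Of the probe sets 41091 had 1 symbol after an update by Entrez number (21304 of 21359 found), 1801 had several and 11721 had none. Every member of the list may be named, with signals for feedback targets, genes without overlap and the 5 smallest p in each direction. Of the other pathway genes, those called and the 4 smallest p per direction among bright genes are named. The members and lists were chosen with earlier results of these data known. The model was tested on simulated data with the same spread in both groups, so that test does not cover the wider spread of the siNT arrays. Alternatives were other moderation, blocks, scaling, filters, probe sets and fold thresholds, and each array left out.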

Additional observations from a re-analysis of the deposited data

How the results depend on the processing

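No member was called in either direction under any alternative, except FZD7, called lower (count 1) with the replicate block and without siNT replicate 1, so that leaving out an array gave 0 to 1 lower calls. Leaving out an array gave a median log2 fold change of 0.020 to 0.18 over the 42 genes and of 0.015 to 0.21 over the bright ones, the lowest without siNT replicate 2 and the highest without siNT replicate 1. With housekeeping centring both medians were -0.015. Over the whole array 100 probe sets were called lower and 13 higher. These counts were 0 and 0 with an F test without moderation, 465 and 28 with housekeeping centring and 4 and 1 with only probe sets of a mean signal of at least 6. With an intensity trend and robust moderation 20 were higher. Leaving out an array gave 0 to 1287 lower and 0 to 595 higher calls, 0 in each direction in all but the fit without siNT replicate 1. The replicate number as a block gave 977 lower and 120 higher. Of the other pathway genes named, HBP1, WNT10A and SFRP4 were called lower with this block, and HBP1 also without siNT replicate 1. Same-numbered arrays did not pair (correlation of deviations -0.15), and with crossed numbers as a block, a choice made after seeing the data, 763 were lower and 159 higher. The causes were not tested.

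Of 591 values of the 51 named genes under alternatives, 35 had the other sign, in 19 genes, and all of these came from values that had not passed. With housekeeping centring they were AXIN1 at -0.012, BCL9 at -0.0080, PYGO1 at -0.019, RNF43 at -0.078, CSNK1D at -0.079, NKD1 at -0.093 and GSK3A at -0.12. With the mean of all probe sets of a gene they were FZD1 at -0.0055, DVL2 at 0.015, AXIN2 at 0.030, EP300 at 0.042, APC at 0.17 and CSNK1D at -0.18. Without _x_at and _s_at probe sets they were TNFRSF19 at -0.022, BTRC at -0.21, WNT10A at 0.13 and APC at 0.29. Leaving out an array gave -0.084 to 0.024 for APC, -0.23 to 0.11 for APCDD1, -0.13 to 0.070 for AXIN2, -0.0084 to 0.25 for BCL9, -0.0049 to 0.31 for BCL9L, -0.0086 to 0.11 for CSNK1D, -0.35 to 0.057 for EP300, -0.24 to 1.02 for FZD3, -0.032 to 0.045 for GSK3A, -0.15 to 0.42 for LRP5, -0.13 to 0.21 for NKD1, -0.11 to 0.33 for PYGO1 and -0.060 to 0.16 for RNF43. Genes under a mean signal of 6, or with only _x_at and _s_at probe sets, had no value under those settings.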
